A study of Arabidopsis thaliana with 4 samples.

Results

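The members described here are 7 of the 22746 probe sets on the array other than controls, picked by probe set identifier because they read genes for enzymes of jasmonate synthesis. LOX2 (AT3G45140, ATH1.252618_at), LOX3 (AT1G17420, ATH1.261037_at) and LOX4 (AT1G72520, ATH1.260399_at) encode plastid lipoxygenases. AOS (AT5G42650, ATH1.249208_at) encodes allene oxide synthase and AOC1 (AT3G25760, ATH1.257644_at) an allene oxide cyclase. OPR3 (AT2G06050, ATH1.265530_at) encodes the oxophytodienoic acid (OPDA) reductase of jasmonate synthesis, and OPCL1 (AT1G20510, ATH1.259518_at) the CoA ligase that activates its product. Probe set identifiers are written here after the name of the array, ATH1. The platform annotation table names 1 of these 7 probe sets, OPCL1, and the other symbols come from the list of identifiers that defines the set. No sequence or position of these genes is given here.

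Jasmonates are lipid hormones that leaves make from linolenic acid released from plastid membranes. In the plastid, lipoxygenases add oxygen to the fatty acid, allene oxide synthase turns the product into an unstable allene oxide, and allene oxide cyclase closes its ring to give oxophytodienoic acid. In the peroxisome, OPDA reductase and a CoA ligase prepare that compound for rounds of side chain shortening to jasmonic acid, which wounding and chewing insects are known to make leaves accumulate.

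Leaf RNA of Arabidopsis thaliana, accession Columbia, was compared between plants carrying developing nymphs of the phloem-feeding whitefly Bemisia tabaci type B, the silverleaf whitefly, and plants without the insect. For the infested group, 100 adult whiteflies were put on each caged plant at an age of 21 days, the adults were removed after 7 days, and rosette leaves were taken 28 days after infestation, at a plant age of 7 weeks. The uninfested group consisted of caged plants of the same age, grown at 8 h of light per day as the infested ones were, from which leaves of matching development were taken. Each group had 2 Affymetrix ATH1 arrays, each made from RNA pooled from 2 replicate experiments of 10 plants, so that the spread between arrays is a spread between pools of 20 plants. Whole leaves hold many cell types, and fewer cells of a type and less RNA per cell cannot be told apart.

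The median signal of the arrays ran from 185.25 to 205.2 after the authors had scaled each to a common trimmed mean, and the brightest of 27 control probe sets for bacterial transcripts read at most 52.1. The lowest signal of any member on any array was 226.4. The array infested 2 stood apart: 27 tested probe sets read there at 8 times the highest other array or more, 16 at an eighth of the lowest or less, and each of the other arrays had 0 or 1 such probe set in either direction. No member was among these. All 5 leaf mesophyll markers with a named probe set, of 7 listed, were bright. Their summed signal was 72846.3 and 59239.4 on the infested arrays and 92568.0 and 99235.8 on the uninfested ones. SBPASE passed the test, lower in infested leaves. PRK and LHCB4.2 passed, also lower, only with the replicate number as a block (limma adjusted p = 0.0237 and 0.0327, against 0.0807 and 0.0613 without it). That block called 19.5% of all tested probe sets, against 5.37% without it. RCA and LHCB4.1 passed in neither fit (limma adjusted p = 0.427 and 0.117, or 0.508 and 0.0694 with the block). Both named guard cell markers, of 3 listed, were tested. Their summed signal was 1193.7 and 1018.1 on the infested arrays and 2094.1 and 1994.6 on the uninfested ones. Most of it came from GC1 (AT1G22690), at 937.6 and 854.2 against 1840.7 and 1711.1, which passed the test, lower in infested leaves. FMA did not pass (limma adjusted p = 0.386), and its groups overlapped, at 256.1 and 163.9 against 253.4 and 283.5. None of the 11 markers listed for phloem, xylem, trichomes, roots and flowers had a named probe set, so these could not be followed. The ratio of 3′ to 5′ signal of an actin control, a sign of RNA integrity, was 5.70 and 6.56 on the infested arrays and 2.70 and 3.88 on the uninfested ones. Other controls did not share this direction. A second actin control gave 1.31 and 1.43 against 1.43 and 1.42. GAPDH (0.97 and 1.02 against 1.17 and 1.15) and ubiquitin (2.08 and 1.87 against 2.77 and 2.34) were lower on the infested arrays. The part of these differences in the results below was not tested.

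No difference between infested and uninfested leaves was detected for the 7 synthesis probe sets. All 7 passed the filter on dim probe sets, and 0 of 7 had a Benjamini-Hochberg adjusted p under 0.05 by limma, against 5.37% of the 13648 probe sets tested (2.83% higher and 2.54% lower). With the replicate number of the titles as a block, 0 of 7 passed as well, against 19.5% of the probe sets tested. The titles do not state that arrays of the same number share an experiment. None of the 7 had an unadjusted p under 0.05. In all 7 the signals of the infested and uninfested arrays overlapped, whereas 61.9% of the tested probe sets had groups that did not overlap. The median log2 change of the members, infested minus uninfested, was -0.050, against 0.037 for all tested probe sets, and their median absolute change was 0.10, against 0.30. By value 3 members were higher and 4 lower in infested leaves. Fold changes here are on log2(signal + 16), the scale of the test, unless they are called ratios of signals.

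**Figure D1:**
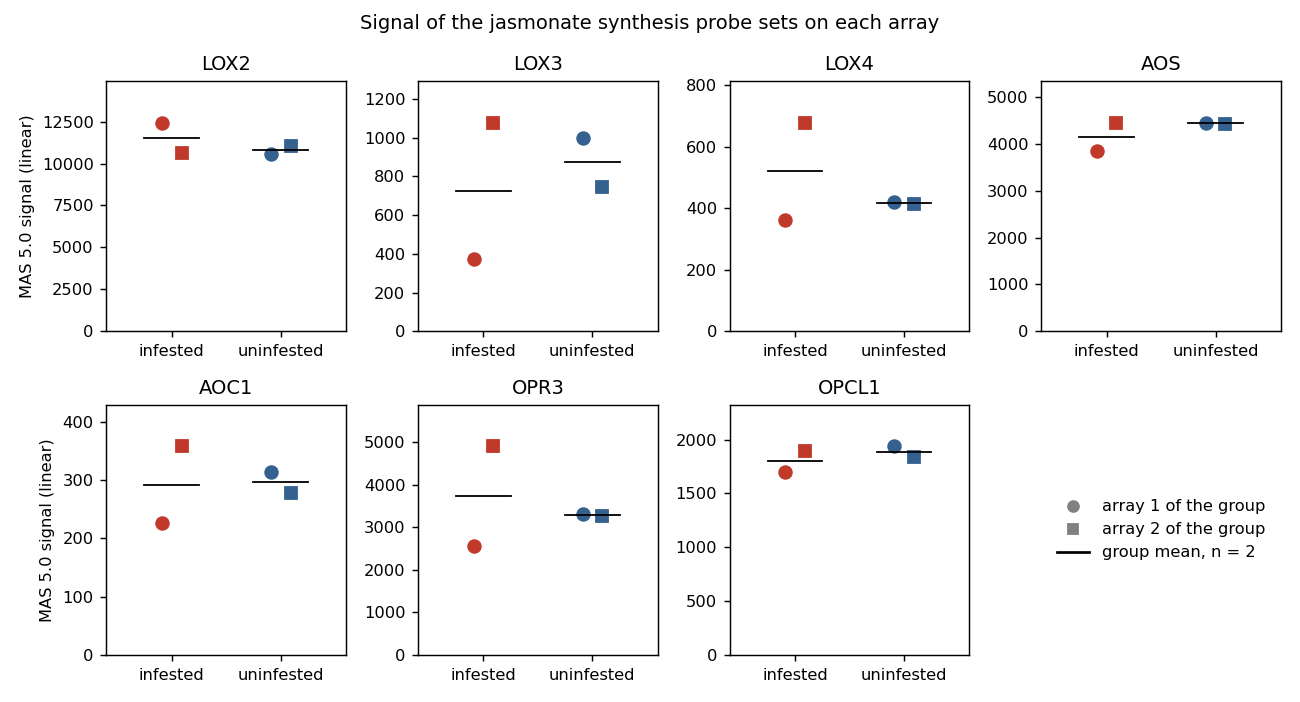
Signal of each synthesis probe set on the 4 arrays, on a linear axis from 0, with infested leaves in red and uninfested leaves in blue; circles are array 1 and squares array 2 of a group, and bars are group means (n = 2). In every panel the groups overlap, and the infested arrays lie farther from each other than the group means do.

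The lipoxygenases carry out the entry step. LOX2, the lipoxygenase that accounts for much of the jasmonate formed in wounded leaves, had signals of 12431.8 and 10652.8 on infested 1 and infested 2, against 10542.0 and 11027.1 on uninfested 1 and uninfested 2. The highest value was thus on infested 1 and the lowest on uninfested 1, and infested 2 lay between the uninfested arrays. Its mean was 11542 ± 1258 in infested and 10784.5 ± 343 in uninfested leaves (SD, n = 2 each), a log2 change of 0.09 with a 95% confidence interval from -0.24 to 0.43 (limma adjusted p = 0.684). That interval spans folds from 0.846 to 1.35, so that a 2-fold change of LOX2 in either direction lies outside it.

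LOX3 encodes a lipoxygenase that acts with LOX4 in flower development and also contributes to wound-induced jasmonate. Its signals were 374.8 and 1077.6 on infested 1 and infested 2, against 998.6 and 747.3 on uninfested 1 and uninfested 2. The infested group held both the lowest and the highest reading, with a ratio of signals of 2.88. The means were 726.2 ± 497 in infested and 872.95 ± 178 in uninfested leaves (SD, n = 2 each), with a log2 change of -0.43, the largest in size of the 7 (95% confidence interval -1.63 to 0.77, limma adjusted p = 0.598). The gap between the infested arrays was larger than that of 98.6% of the tested probe sets.

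LOX4 read 361.6 and 678.4 on infested 1 and infested 2, against 421.3 and 412.5 on uninfested 1 and uninfested 2. The uninfested arrays were nearly level, and the infested arrays lay on either side of them. The mean was 520.0 ± 224 in infested and 416.9 ± 6.22 in uninfested leaves (SD, n = 2 each), and the log2 change was 0.24 (95% confidence interval -0.51 to 1.00, limma adjusted p = 0.639).

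Allene oxide synthase, a cytochrome P450 enzyme, commits the lipoxygenase product to the jasmonate branch. AOS had signals of 3857.9 and 4451.7 on infested 1 and infested 2, against 4454.0 and 4434.9 on uninfested 1 and uninfested 2. Infested 1 was the only array below the others, which lay within a narrow range. The log2 change was -0.10 (95% confidence interval -0.47 to 0.27, limma adjusted p = 0.695), and the interval spans folds from 0.721 to 1.21.

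AOC1 belongs to a small family of closely related allene oxide cyclase genes, whose transcripts the probes may not tell apart. It was the dimmest of the 7, with 226.4 and 357.8 on infested 1 and infested 2, against 314.4 and 277.8 on uninfested 1 and uninfested 2. Here too the infested arrays enclosed the uninfested ones. The group means of 292.1 ± 92.9 in infested and 296.1 ± 25.9 in uninfested leaves (SD, n = 2 each) were nearly equal, with a log2 change of -0.050 (95% confidence interval -0.67 to 0.57, limma adjusted p = 0.917).

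The peroxisomal steps follow. OPR3, whose loss makes Arabidopsis flowers male sterile, had 2560.0 and 4904.6 on infested 1 and infested 2, against 3315.6 and 3277.6 on uninfested 1 and uninfested 2. As for LOX4, the uninfested arrays were close together and the infested arrays lay below and above them. The mean was 3732 ± 1658 in infested and 3297 ± 26.9 in uninfested leaves (SD, n = 2 each), a log2 change of 0.10 (95% confidence interval -0.67 to 0.88, limma adjusted p = 0.856).

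OPCL1 read 1701.4 and 1897.9 on infested 1 and infested 2, against 1936.2 and 1833.4 on uninfested 1 and uninfested 2. All 4 arrays lay close together, with infested 1 lowest. The log2 change was -0.068 (95% confidence interval -0.46 to 0.33, limma adjusted p = 0.814). With all 4 arrays, a 2-fold change lay outside the intervals of LOX2, AOS, AOC1, OPR3 and OPCL1 in either direction. That of LOX3 reached a fold of 0.323 on its lower side. That of LOX4 ended just short of 2-fold, at 1.996, on its upper side. This did not hold in every fit with an array left out. Without uninfested 1 or without uninfested 2, the interval of OPR3 took in a 2-fold rise. Without uninfested 2, that of AOC1 took in a 2-fold fall.

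Because arrays of the same number were taken to share an experiment, each member was also set out by pair. In the first pair (infested 1 over uninfested 1) 6 members were lower and LOX2 was higher; in the second pair (infested 2 over uninfested 2) the same 6 were higher and LOX2 was lower. The direction thus turned between the pairs in 7 of 7 members, while it turned in 25.4% of all tested probe sets. This is not separate from the overlap given above. A probe set whose groups do not overlap cannot turn, and 61.9% of those tested were of that kind, while all 7 members overlapped. The pattern of the 6, lower in the first pair and higher in the second, was found in 8.07% of the tested probe sets, and that of LOX2 in 17.4%. These are descriptions of 2 pairs, and they were not tested.

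The size of the turn differed among members. LOX3 had log2 ratios of -1.38 in the first pair and 0.52 in the second, a gap of 1.90 that 50 of the 13648 tested probe sets, or 0.366%, exceeded in that direction. OPR3 had -0.37 and 0.58 and LOX4 -0.21 and 0.70, and 2.1% and 2.4% of the tested probe sets had a larger gap in that direction. AOC1 followed with -0.45 and 0.35, and 3.29% were larger in that direction. Gaps in the other direction were not counted in these shares. For AOS, with -0.21 and 0.0054, and OPCL1, with -0.18 and 0.049, the second ratio was near 0, so that their turn is a matter of sign more than of size. LOX2 had 0.24 and -0.050.

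**Figure D2:**
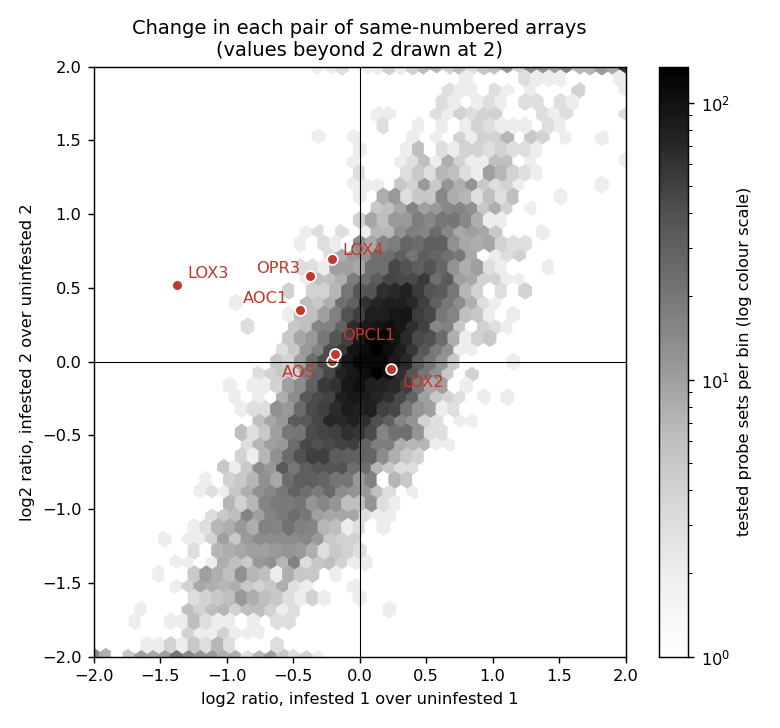
Log2 ratio of infested to uninfested signal, on log2(signal + 16), in the pair of arrays numbered 2 (vertical axis) against that numbered 1 (horizontal axis), for all 13648 tested probe sets (grey, darker where more probe sets fall) and the 7 synthesis probe sets (red). Most probe sets lie along the rising diagonal; LOX3 (-1.38 and 0.52), OPR3, LOX4 and AOC1 lie to its upper left, and LOX2 lies at the lower right of the origin.

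Most of this turn came from the infested arrays. Signals were higher on infested 2 than on infested 1 for 6 of the 7 members, against 41.6% of the tested probe sets, and LOX2 was the exception. The ratio of infested 2 to infested 1 was 2.88 for LOX3, 1.92 for OPR3, 1.88 for LOX4, 1.58 for AOC1, 1.2 for AOS, 1.12 for OPCL1 and 0.857 for LOX2. The median absolute log2 gap between the infested arrays was 0.62 over the members and 0.27 over all tested probe sets. Between the uninfested arrays it was 0.065 over the members and 0.15 over all tested probe sets. The infested pools thus differed more from each other in these transcripts than the uninfested pools did, by value.

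The call for 3 members rested on which infested array was kept. Without infested 1, LOX4 had a log2 change of 0.68 (limma adjusted p = 0.0186) and OPR3 of 0.57 (adjusted p = 0.0214), so 2 of 7 members passed, where 34.0% of the tested probe sets did. Without infested 2, the array that stood apart, LOX3 had a log2 change of -1.17 (adjusted p = 0.0165), so 1 of 7 passed, where 10.2% of the tested probe sets did. In both of these fits the spread comes from the uninfested arrays alone, and the single infested array is assumed to vary as they do. Without uninfested 1 or without uninfested 2 no member passed, and limma called 0 of the tested probe sets in each.

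**Figure D3:**
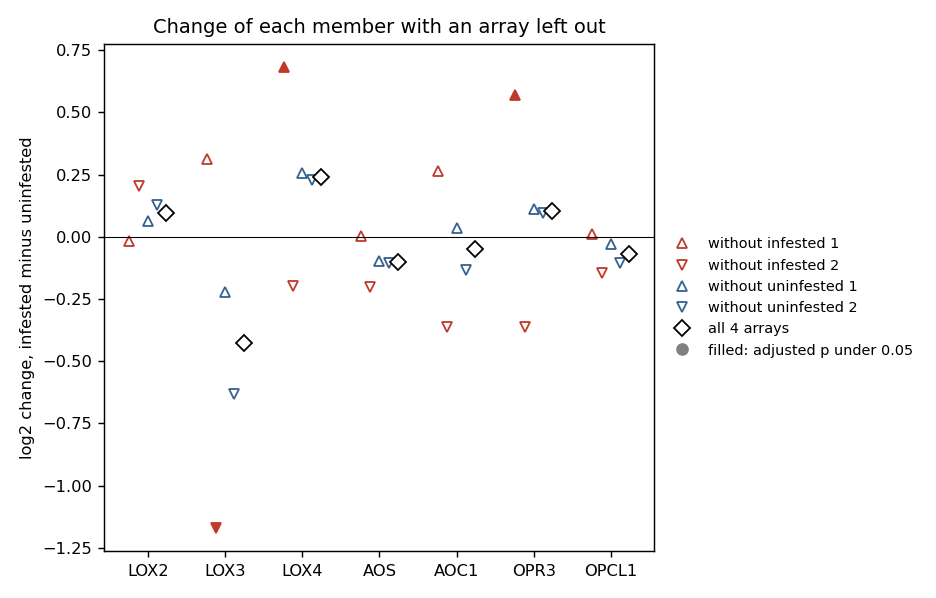
Log2 change (infested minus uninfested) of each synthesis probe set by limma with 1 array left out (triangles) and with all 4 arrays (diamonds); filled symbols have an adjusted p under 0.05. Leaving out infested 1 or infested 2 puts each member on opposite sides of 0. The filled symbols come from fits with 1 array in the infested group, so no call is read from them.

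The members were compared with each other by the distance between their centred log2 values over the 4 arrays. AOS and OPCL1 were closest, at a distance of 0.070, followed by LOX4 and OPR3 at 0.14. The lipoxygenases lay farther apart by this distance: LOX2 and LOX3 had the largest of the 21 pairs, 1.36, and LOX3 and LOX4 were 0.84 apart. The distance takes in the size of a profile as well as its shape. AOS and OPCL1 varied little, with log2 gaps of 0.21 and 0.16 between the infested arrays, and flat profiles lie close for that reason. LOX3 and LOX4 were both higher on infested 2 than on infested 1, LOX3 by more. LOX3 had the smallest p of the members, and of 7364 other tested probe sets with a gene name, that of AT1G61890 had the nearest profile, at a distance of 0.33. AT1G61890 read 914.9 and 2082.8 on infested 1 and infested 2, against 1759.3 and 1578.1 on uninfested 1 and uninfested 2. Its low reading on infested 1, like that of LOX3, follows from a search for likeness on these same arrays. AT3G22060, AT3G28590, AT2G22880 and AT2G45630 came next, at 0.45 to 0.54. With 4 arrays such likeness is a description of these arrays alone.

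The other genes of the pathway could be followed only in part, since 11 of 55 listed genes had a probe set with 1 gene name, and 7 of these passed the filter. Of the 24 genes of other synthesis steps, AIM1, which encodes a peroxisomal beta-oxidation enzyme, was the single tested one. It read 2489.6 and 2461.1 on infested 1 and infested 2, against 2431.7 and 2204.1 on uninfested 1 and uninfested 2, with a log2 change of 0.10 (95% confidence interval -0.28 to 0.48, limma adjusted p = 0.714). DGL, a plastid lipase gene, was too dim to test. Its signals were 7.6 and 6.9 on the infested and 36.7 and 45.9 on the uninfested arrays, all below the highest bacterial control of 52.1.

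Genes of jasmonate turnover gave a different picture by value from those of synthesis. Of 12 listed genes for conjugation and turnover 3 were tested, all of them jasmonate-induced oxygenase genes, whose enzymes hydroxylate jasmonic acid and so inactivate it. JOX3 (AT3G55970, also named JRG21) read 479.5 and 256.0 on infested 1 and infested 2, against 65.8 and 66.5 on uninfested 1 and uninfested 2. The infested arrays were well above the uninfested ones, with a ratio of mean signals of 5.56. Its log2 change was 2.16 (95% confidence interval 1.38 to 2.94, limma adjusted p = 0.0371). Both uninfested signals were below the level of the filter, about 116, so JOX3 was tested only through the group in which it was high, and its p carries that choice. It was below the filter without infested 1 and with a filter at the 60th percentile.

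JOX2 (AT5G05600) read 1209.2 and 1657.6 on infested 1 and infested 2, against 657.6 and 594.3 on uninfested 1 and uninfested 2. It rose by a log2 change of 1.16 (95% confidence interval 0.64 to 1.68, limma adjusted p = 0.0447), and the groups did not overlap. JOX4 (AT2G38240) read 442.1 and 292.0 on infested 1 and infested 2, against 278.6 and 152.1 on uninfested 1 and uninfested 2, with a log2 change of 0.76 (limma adjusted p = 0.211, or 0.0341 with the replicate block). Of the 3 tested turnover genes JOX2 and JOX3 thus passed, and since JOX3 entered the test through its infested arrays, no share of the list is read from this. The call of JOX2 was lost with median scaling (adjusted p = 0.0536) and with an eBayes prior without a trend (0.0506), and the calls of JOX2 and JOX3 were lost with every probe set tested (0.0803 and 0.0802) and without uninfested 1 (0.274 and 0.208) or uninfested 2 (0.269 and 0.207). The difference between the turnover and the synthesis genes was not tested.

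The other named turnover genes were too dim to test. JMT, whose enzyme makes methyl jasmonate, had 90.6 and 38.3 on infested 1 and infested 2, against 118.9 and 158.6 on uninfested 1 and uninfested 2. The reading on infested 2 was below the highest bacterial control of that array, 41.7. JOX1 (AT3G11180) read 10.9 and 37.0 on the infested and 10.9 and 31.8 on the uninfested arrays, all below their bacterial controls.

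Of 19 listed genes of jasmonate signalling and output, 3 were tested and 0 passed. MYC3, a transcription factor gene of jasmonate responses, had 694.8 and 744.8 on infested 1 and infested 2, against 426.2 and 429.8 on uninfested 1 and uninfested 2. Its arrays did not overlap, and its log2 change was 0.73 (limma adjusted p = 0.0576, or 0.0251 with the replicate block). MYC4, which encodes a close relative, read 432.0 and 452.6 on the infested and 256.0 and 338.5 on the uninfested arrays, with a log2 change of 0.56 (limma adjusted p = 0.138). The defensin gene PDF1.2, an output shared with ethylene, went the other way by value, with 355.8 and 452.7 on the infested and 701.6 and 858.2 on the uninfested arrays (limma adjusted p = 0.0589, or 0.00999 with the replicate block). THI2.1, a thionin gene of jasmonate output, was too dim to test, at 88.8 and 47.4 on the infested and 63.9 and 65.4 on the uninfested arrays.

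**Figure D4:**
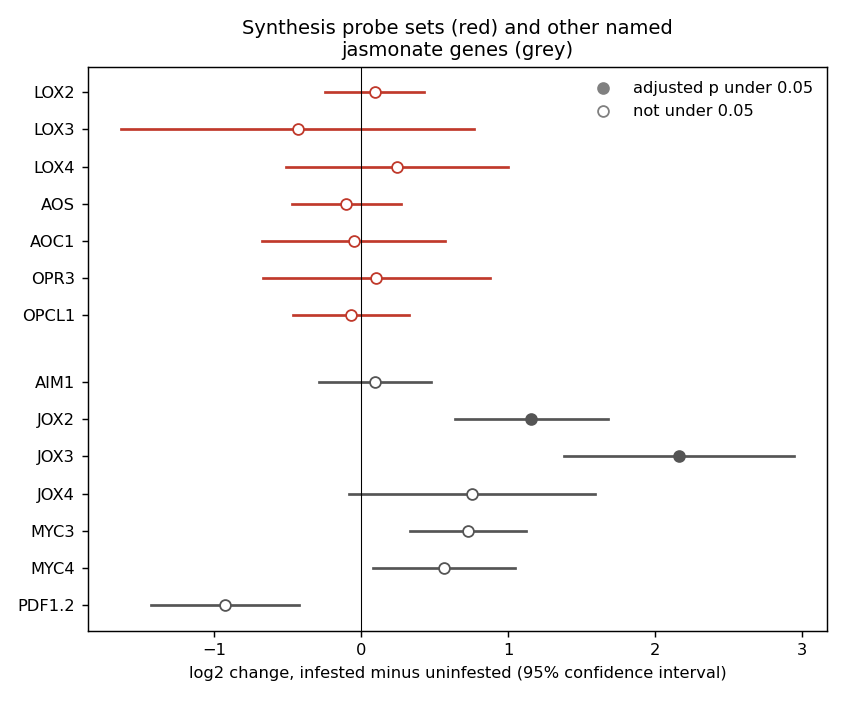
Log2 change (infested minus uninfested) with its 95% confidence interval by limma for the 7 synthesis probe sets (red) and the 7 other tested jasmonate genes (grey), n = 2 arrays per group; filled symbols have an adjusted p under 0.05. The synthesis intervals all include 0, and JOX2 (1.16) and JOX3 (2.16) are the filled ones.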

How the data were processed

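Per the labels and the series text, the authors ran MAS 5.0 with its standard parameters, and the deposited table holds its linear signal intensity per probe set. The 2%-trimmed mean was 500.04 on each array, and 64 control probe sets of 22810 were set aside. The tests used log2(signal + 16) without another normalization, and probe sets with a mean below the 40th percentile (9098, equal to a signal of about 116) were not tested. The 13648 others were tested in R 4.3.3 by limma 3.58.1 (two-sided; lmFit, eBayes with a variance trend, Benjamini-Hochberg adjustment), which called 386 higher and 347 lower, or 342 and 589 with median scaling. The fit was also run on simulated data with independent noise of the same spread for every probe set and array. The real arrays differ from that setting, so the run checks the code alone. An exact permutation test with 2 arrays against 2 cannot give a p below 0.333.

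Arrays were grouped and numbered by their titles. The number was taken as a shared experiment, since the series text has each experiment yield an infested and a control pool; over probe sets, which are not independent, the deviations from the group mean correlated at 0.264 between arrays of a number. Gene names came from the platform table, updated to RefSeq TAIR10.1. The named genes were the members, every listed gene with a named probe set, and the 5 nearest profiles to the member with the smallest p. Members and lists were chosen with earlier results of these data known. Alternatives were 12 in number.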

Additional observations from a re-analysis of the deposited data

How the results depend on the processing

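Settings other than left-out arrays gave 55 values for the 7 members, and 54 of them kept the direction and stayed without a call. The exception was AOS, with a log2 change of 0.011 under quantile normalization. The other filters, the eBayes prior without a trend and the replicate block cannot move a log2 change here. Their directions were thus fixed in advance, and only the pseudocounts, median scaling and quantile normalization could turn one. AOC1, JOX3 and JOX4 were below the filter at the 60th percentile, and JOX3 also below the main filter without infested 1. With an array left out, the changes ran from -0.017 to 0.21 for LOX2, -1.17 to 0.31 for LOX3 and -0.20 to 0.68 for LOX4. They ran from -0.20 to 0.0024 for AOS, -0.36 to 0.26 for AOC1, -0.36 to 0.57 for OPR3 and -0.15 to 0.010 for OPCL1. Without infested 1 or infested 2 the fits keep 1 array in that group. The calls over all probe sets, 733, became 2657 with the replicate block, 476 with an eBayes prior without a trend and 0 with every probe set tested (4656 at an unadjusted p under 0.05), and ran from 0 to 4640 with an array left out; the cause was not tested. The block gave 0 of 7 members a call and changed the calls of JOX4, MYC3 and PDF1.2 among the other jasmonate genes and of PRK and LHCB4.2 among the markers. With an array left out, the log2 change ran from 0.68 to 0.78 for MYC3 and from -1.09 to -0.76 for PDF1.2. Each such fit keeps 1 array in a group, so no call is read from it. The alternatives for genes other than the members were added after seeing the data. Precision is limited by having 2 arrays in a group.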
